A study of Homo sapiens with 8 samples.

Results

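Cytochrome P450 genes (CYP genes) other than CYP1A1, CYP1B1 and CYP51A1 were followed by RNA-seq in RKO and SW480, established human cell lines from colorectal cancers, over 8 libraries. The genes were taken by name, as every gene symbol made of CYP, a family number, a subfamily letter and a member number. Among 16829 counted genes 45 had such a name, and 42 remained after the 3 exclusions. The study raised CYP1B1 in RKO and lowered it in SW480, with 2 libraries in each of 4 groups: RKO-CYP1B1 (lentiviral overexpression), RKO-Control (labelled as the normal control), SW480-shCYP1B1 (knockdown by 1 hairpin) and SW480-shNT (the control of the knockdown). Cells of both lines grew in serum-containing medium and come under the same lentivirus protocol; the labels do not say what virus the RKO control received. Effects of the hairpin other than on CYP1B1 cannot be told apart from the knockdown, and the labels give colon tissue as the source although the material is tumour lines. Nothing in the labels says that the 2 libraries of a group came from separate cultures. The p-values therefore describe spread between libraries that may be technical. In bulk RNA, fewer cells that express a gene and less RNA per cell cannot be told apart.

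P450 enzymes are haem proteins that insert 1 atom of molecular oxygen into a substrate, with electrons passed on from NADPH. Most sit in the endoplasmic reticulum and draw electrons from the reductase POR, while a smaller set in mitochondria draws them from ferredoxin and its reductase. The CYP1, CYP2 and CYP3 families hold most of the enzymes that oxidise drugs and other foreign compounds. Other families make or break down vitamin D, retinoic acid, bile acids, steroid hormones and fatty acid signals. In the gut the epithelium carries a small part of the set found in liver.

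CYP1B1 itself checks the labels. It had 437 and 519 CPM (read counts relative to library totals scaled with TMM factors) in RKO-CYP1B1, against 0.686 and 0.701 CPM in RKO-Control. In SW480 it had 0.367 and 0.301 CPM in SW480-shCYP1B1, against 1.44 and 2.20 CPM in SW480-shNT. Both shifts followed the labels, on a starting level of CYP1B1 that was low in either line.

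Total counts lay between 31550173 and 34921085 per library, so that 3 counts, the limit that a count of 0 allows, equal 0.0859 to 0.0951 CPM for counting error only. The RKO-CYP1B1 libraries differed from each other more than any other pair: 58 of 10593 well-counted genes differed over 2-fold between them, against 5 to 8 in the other pairs. Of 9 colorectal epithelial markers, 4 reached 1 CPM in RKO-CYP1B1, 5 in RKO-Control and 7 in each SW480 group. CDX2, KRT8 and KRT18 were present in both lines, whereas in RKO the markers CDX1 and LGALS4 were at 0 in every library and VIL1, CDH1 and KRT19 had at most 33 counts. The liver marker ALB was at 0 in RKO and had 1 to 8 counts in SW480. Of the 6 hepatocyte markers counted, 1 reached 1 CPM in every group. The hepatocyte list summed to 322 to 377 CPM in SW480, nearly all of it SERPINA1, and to 1.05 to 1.79 CPM in RKO. The steroidogenic marker STAR had at most 2 counts in any library. Of the 4 steroidogenic markers counted, 1 reached 1 CPM in each SW480 group and 0 in RKO, with sums of at most 3.31 CPM. Of the 8 immune markers counted, 1 reached 1 CPM in each RKO group. The immune list summed to 662 to 685 CPM in RKO-CYP1B1 and 691 to 773 CPM in RKO-Control. In SW480 it summed to 28.0 to 28.3 CPM in SW480-shCYP1B1 and 10.4 to 11.8 CPM in SW480-shNT.

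The core motif of many nuclear receptors lies upstream of CYP3A5, CYP2S1 and CYP4V2, and of other P450 genes named below. The sequences of CYP3A5, CYP2S1 and CYP4V2 are shown because they are among the P450 genes whose change in SW480 held in every setting tried. The others are CYP24A1 and CYP27B1, for which no promoter sequence was at hand. The sequences are from RefSeq (GRCh38.p14) and read 5′ to 3′ along the gene. They were trimmed to the bases before the gene's span in GENCODE 29. Capitals mark the nuclear receptor core AGGTCA, its reverse complement TGACCT or, in CYP3A5, also TGAACT, the other part of a repeat described below.

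CYP3A5 (chr7:99680027-99680246, minus strand): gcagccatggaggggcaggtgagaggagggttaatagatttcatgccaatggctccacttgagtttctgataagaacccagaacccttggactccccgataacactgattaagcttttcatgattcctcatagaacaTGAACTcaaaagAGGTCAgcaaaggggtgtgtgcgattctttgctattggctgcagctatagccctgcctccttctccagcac

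CYP2S1 (chr19:41192969-41193048, plus strand): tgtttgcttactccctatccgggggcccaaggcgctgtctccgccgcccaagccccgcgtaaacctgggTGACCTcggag

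CYP4V2 (chr4:186191317-186191519, plus strand): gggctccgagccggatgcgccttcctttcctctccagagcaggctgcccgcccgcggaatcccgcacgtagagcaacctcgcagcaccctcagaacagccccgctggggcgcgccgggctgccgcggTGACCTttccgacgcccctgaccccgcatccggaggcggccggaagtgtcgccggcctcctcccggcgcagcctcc

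Motifs were searched on both strands in the 250 bases before the first listed RefSeq start, which 33 of the 42 genes matched. AGGTCA was in 10 of these 33, and in 12.1% of all 27305 promoters of that length. Besides the genes shown, it was in CYP2E1, CYP3A7, CYP19A1 and CYP27C1, of which only CYP2E1 passed the test in SW480. It was also in CYP3A4, CYP17A1 and CYP21A2, which had too few counts to be tested. TGAACT and AGGTCA with 6 bases of any kind between them form an everted repeat, which contains a match of AGGTCA and, on the other strand, of AGTTCA. Such a repeat is known as a site for the pregnane X receptor in CYP3A4. It was in 3 of the 27305 promoters (0.011%), and 2 of these were CYP3A4 and CYP3A5. In CYP3A5 it lies 113 to 96 bases before the start. No values are reported here for NR1I2, the gene of that receptor, and NR1I3 (the constitutive androstane receptor) had at most 5 counts in any library. The aryl hydrocarbon receptor core GCGTG was in 6 of the 33 and in 31.9% of all promoters, and AGTTCA was in 4 of the 33 and in 8.91% of all. GCGTG was in CYP20A1, CYP2J2 and CYP4F22, and in the untested CYP11A1, CYP26C1 and CYP2W1. The windows of CYP3A5, CYP2S1 and CYP4V2 held none. A match of letters is a description and not a binding site.

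Most of the 42 genes were nearly silent. Each had at least 1 count in some library, and P450 genes absent from the deposited counts are not among the 42. Only 17 of the 42 genes reached 1 CPM of the library total in any library, 17 in some SW480 library and 8 in some RKO library, and 6 reached it in every library. Just inside that limit were CYP4X1 and CYP3A7, with 36 and 37 counts in their highest library; just outside was CYP2D6, with 30 counts. Of the 42 genes 21 passed the filter on low counts and were tested. The other 21 never exceeded 13 counts in a library, and 17 of them never reached 10. Those that did were CYP11A1 and CYP17A1 of steroid hormone synthesis, CYP46A1, the cholesterol 24-hydroxylase, and CYP2W1.

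Several drug-oxidising enzymes of the liver were at this floor, while CYP2E1 and CYP2D6 were tested. CYP3A4 had 0 counts over the 4 RKO libraries and 8 over the 4 SW480 libraries. CYP2C8 had 1 count over all libraries, in SW480, and CYP2C19 had 2, in RKO. CYP1A2 had 14 counts, all in SW480. CYP7B1, an oxysterol 7-alpha-hydroxylase, had 2 counts in all and CYP21A2, the adrenal 21-hydroxylase, had 1. In total 16 of the 42 genes had no count in any RKO library, and 2, CYP21A2 and CYP2C19, had none in any SW480 library.

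**Figure D1:**
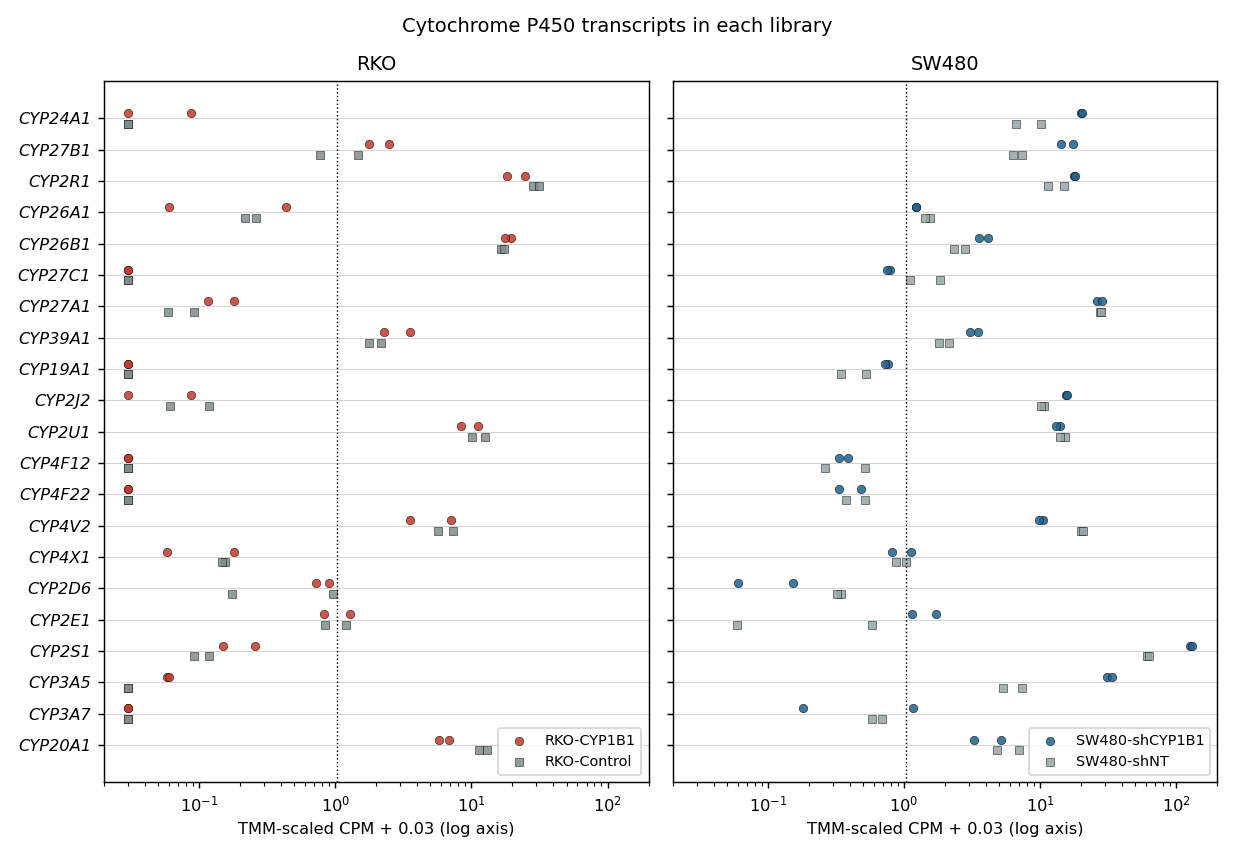
Each point is 1 library, the rows are the 21 tested P450 genes ordered by role, and the x axis is TMM-scaled CPM plus 0.03 on a log axis, with the dotted line at 1 CPM. Points at the left edge are libraries with a count of 0. CYP2S1 reached 126 and 130 CPM in SW480-shCYP1B1, and CYP2R1 and CYP26B1 lay above 15 CPM in every RKO library.

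Levels of different genes were compared as deposited FPKM, which is corrected for gene length. In SW480 the order was led by CYP2S1, an extrahepatic enzyme of epithelia. Its mean FPKM was 47.2 in SW480-shCYP1B1 and 23.6 in SW480-shNT, or 49.7% and 38.6% of the FPKM summed over the 42 genes. CYP27A1, the mitochondrial sterol 27-hydroxylase of bile acid synthesis, came next with 11.4 FPKM in SW480-shCYP1B1 and 11.995 FPKM in SW480-shNT. CYP2J2, an arachidonic acid epoxygenase, was next in both groups, with 7.96 FPKM in SW480-shCYP1B1 and 5.48 FPKM in SW480-shNT. In neither SW480 group did the FPKM ranges of these leading genes overlap.

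In RKO the order was different and much flatter. CYP26B1, a retinoic acid hydroxylase, had 3.95 FPKM in RKO-CYP1B1, where it led, and 3.64 FPKM in RKO-Control. CYP20A1, an orphan P450 with no settled substrate, had 2.54 FPKM in RKO-CYP1B1 and 4.96 FPKM in RKO-Control, where it led. Within each group the ranges of these genes were apart. CYP2R1, the microsomal vitamin D 25-hydroxylase, and CYP2U1, a long-chain fatty acid hydroxylase, had 1.82 and 2.07 FPKM in RKO-CYP1B1. Their levels in RKO-Control were 2.55 and 2.43 FPKM, and their ranges overlapped in both RKO groups. Summed over the 42 genes, FPKM was 15.4 and 13.7 in RKO-CYP1B1 against 15.9 and 18.4 in RKO-Control. The sum was 94.5 and 95.7 in SW480-shCYP1B1 against 60.9 and 61.7 in SW480-shNT, with no overlap between these groups. CYP2S1 alone made up 49.7% of the mean sum in SW480-shCYP1B1 and 38.6% in SW480-shNT.

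The control libraries of the lines were compared directly, with RKO-Control set over SW480-shNT; line and control vector cannot be told apart in this comparison. By edgeR's quasi-likelihood test, with Benjamini-Hochberg adjustment over all 14157 genes tested and a threshold of 0.05, 17 of the 21 tested P450 genes differed, 3 higher and 14 lower in RKO-Control. Among all tested genes 76.8% differed, 35.6% higher and 41.2% lower. The share of genes that differed was thus near the background. Of the 14 lower genes 12 averaged under 10 counts in RKO and passed the low-count filter only through SW480, so that their direction was fixed by the filter.

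The genes higher in RKO-Control were CYP26B1, CYP2R1 and CYP20A1. CYP26B1 had 16.4 and 17.4 CPM in RKO-Control against 2.80 and 2.29 CPM in SW480-shNT (log2 fold change 2.73 ± 0.18 SE, adjusted p = 6.84e-08). CYP2R1 differed by 1.18 ± 0.17 and CYP20A1 by 1.04 ± 0.25 on the log2 scale (edgeR adjusted p = 4.79e-05 and 0.00266). For all 3 both RKO-Control libraries lay above both SW480-shNT libraries.

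Several of the lower genes were at or next to 0 in RKO-Control. CYP24A1 had 0 counts in both RKO-Control libraries and 349 and 230 in SW480-shNT, at least 89.7-fold lower against 3 counts per library. CYP3A5 likewise had 0 counts in RKO-Control and 183 and 253 in SW480-shNT, at least 67.6-fold lower in RKO-Control. CYP2S1 summed to 5 counts in RKO-Control and 4292 in SW480-shNT, 798-fold lower with a 95% counting interval of 342 to 2459. CYP27A1, with 3 counts against 1925, was 597-fold lower (204 to 2895), and CYP2J2, with 4 against 716, was 166-fold lower (64.7 to 612). The bounds for CYP27C1, CYP3A7, CYP4F22, CYP19A1 and CYP4F12, all at 0 in RKO, ran from at least 3.87-fold to at least 15.5-fold lower in RKO-Control.

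The other lower genes had counts in both lines, and CYP27B1 and CYP4V2 were well counted in both. CYP27B1, the 1-alpha-hydroxylase that makes active vitamin D, was lower by a log2 fold change of -2.63 ± 0.31, and CYP4V2, a fatty acid omega-hydroxylase, by -1.65 ± 0.26 (edgeR adjusted p = 9.00e-06 and 0.000104). CYP26A1, the other main retinoic acid hydroxylase, and CYP4X1 were lower by -2.77 ± 0.76 and -2.90 ± 0.74, with at most 8 counts in an RKO-Control library. Both are among the 12 genes that passed the filter only through SW480, so their direction was fixed by the filter. CYP2U1, CYP39A1, CYP2D6 and CYP2E1 did not pass the test between the lines.

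**Figure D2:**
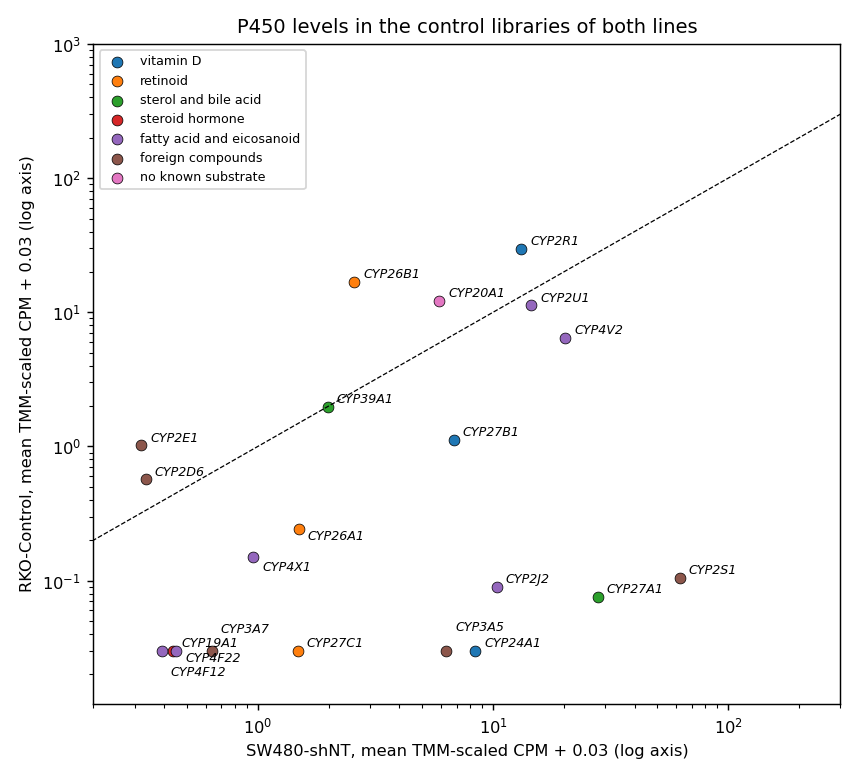
Each point is 1 of the 21 tested P450 genes, placed by its mean TMM-scaled CPM plus 0.03 in SW480-shNT (x, log axis) and RKO-Control (y, log axis), coloured by role, with a dashed line at equal levels. CYP26B1, CYP20A1 and CYP2R1 lie above the line, and CYP2S1, CYP27A1, CYP2J2, CYP24A1 and CYP3A5 lie near the bottom edge.

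With CYP1B1 raised in RKO, 1 P450 gene passed the test: CYP20A1 fell. Of the 9 genes with a mean of at least 10 counts over the RKO libraries, 1 was called lower and 0 higher. Of all 14157 tested genes 27.6% were called, 13.8% higher and 13.8% lower, and of the 11969 with that mean 32.1%. The share called, 1 of 9, was below the background, but so few genes leave that share imprecise. The median log2 fold change of the 9 was 0.05, beside -0.01 over the 11969. The call count was 0 without RKO-Control 1 and 4 without RKO-CYP1B1 1, a library of the pair that agreed least.

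CYP20A1 had 5.79 and 6.76 CPM in RKO-CYP1B1, against 11.2 and 13.003 CPM in RKO-Control. Both overexpression libraries lay under both control libraries. The log2 fold change was -0.95 ± 0.25 (edgeR adjusted p = 0.0160). The call was lost without RKO-Control 1 (-1.05, adjusted p = 0.0528) and without RKO-Control 2 (-0.84, adjusted p = 0.123).

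The vitamin D enzymes of RKO sat close to the threshold. CYP27B1 had 1.75 and 2.45 CPM in RKO-CYP1B1 against 0.748 and 1.43 CPM in RKO-Control, and CYP2R1 had 24.7 and 18.2 CPM in RKO-CYP1B1 against 28.3 and 31.3 CPM in RKO-Control. Neither gene's groups overlapped. CYP27B1 differed by 0.93 ± 0.33 and CYP2R1 by -0.47 ± 0.16 on the log2 scale, short of the threshold (edgeR adjusted p = 0.0542 and 0.0516). CYP27B1 passed with DESeq2 (adjusted p = 0.0234), with the replicate block (0.0348), without RKO-Control 2 (1.49, adjusted p = 0.0354) and without RKO-CYP1B1 1 (1.16, adjusted p = 0.00514). CYP2R1 passed with DESeq2 (adjusted p = 0.0285), RLE size factors (0.0468), library totals (0.0465) and without RKO-CYP1B1 1 (-0.71, adjusted p = 0.000456). CYP24A1, the 24-hydroxylase that inactivates vitamin D, had 2 and 0 counts in RKO-CYP1B1 and 0 in RKO-Control, too few to compare.

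None of the other 6 measured genes passed in RKO. CYP4V2 shows how far 1 library mattered: it had 6.997 and 3.50 CPM in RKO-CYP1B1 and 5.61 and 7.25 CPM in RKO-Control, ranges that overlap. Its log2 fold change was -0.29 ± 0.27 (edgeR adjusted p = 0.465), but -0.88 without RKO-CYP1B1 1 (adjusted p = 0.00217) and 0.12 without RKO-CYP1B1 2. CYP26B1 had 19.6 and 17.5 CPM in RKO-CYP1B1 against 16.4 and 17.4 CPM in RKO-Control (0.14 ± 0.16, adjusted p = 0.575). CYP2U1 differed by -0.21 ± 0.18, CYP39A1, the 24-hydroxycholesterol 7-alpha-hydroxylase, by 0.57 ± 0.34, and CYP2D6, a drug-oxidising enzyme, by 0.53 ± 0.78. CYP2E1, the ethanol-inducible enzyme, differed by 0.05 ± 0.72. It had 28 and 42 counts in RKO-CYP1B1 and 26 and 40 in RKO-Control, a ratio of summed reads of 1.02 with a 95% counting interval of 0.716 to 1.45.

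With CYP1B1 lowered in SW480, 9 P450 genes passed the test. The genes that rose were CYP3A5, CYP2S1, CYP24A1, CYP27B1, CYP2E1, CYP26B1, CYP2J2 and CYP2R1, and CYP4V2 fell. Of the 20 genes with a mean of at least 10 counts in SW480, 45% were called, beside 50.6% of all tested genes and 51.8% of the 13705 with that mean. The number of calls was near the background, and 25.3% of all tested genes were called higher and 25.3% lower. The median log2 fold change of the 20 was 0.26, beside 0.00 over the 13705. The number of calls was 5 without SW480-shNT 2 and 5 without SW480-shCYP1B1 1. CYP3A5, CYP2S1, CYP24A1, CYP27B1 and CYP4V2 kept direction and call in all 15 alternatives run.

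**Figure D3:**
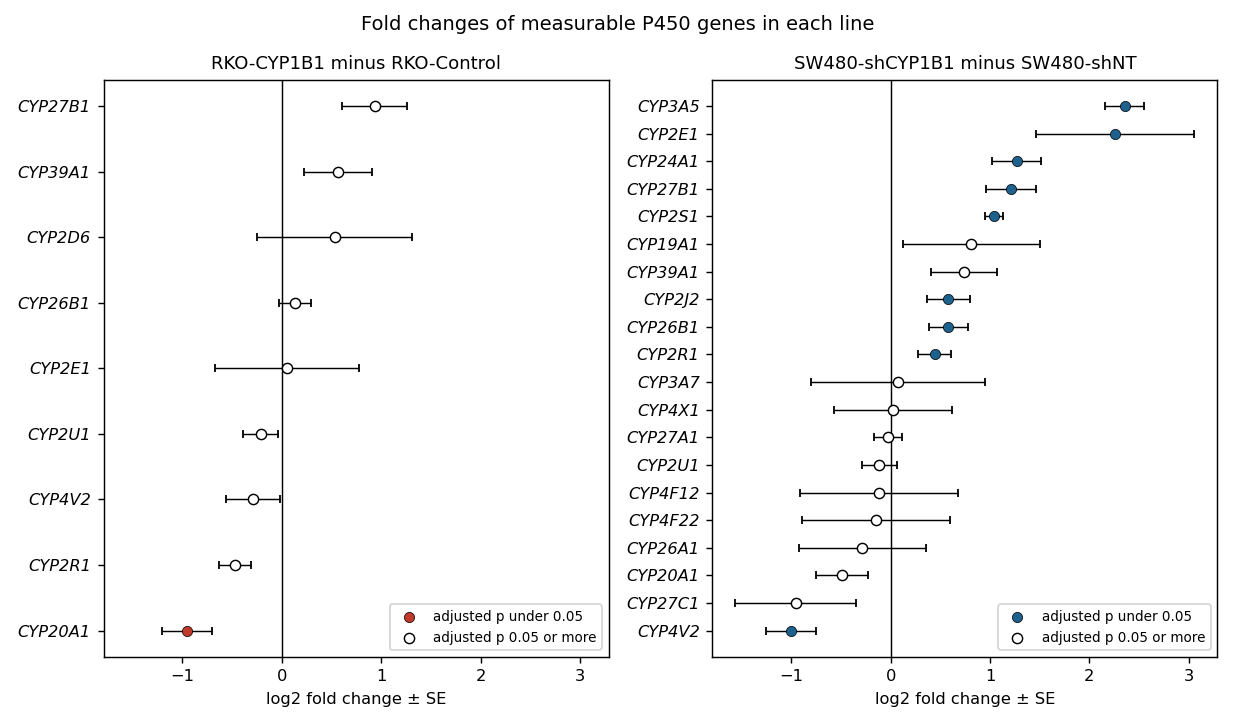
Points are log2 fold changes with their SE for the 9 P450 genes measurable in RKO (left) and the 20 measurable in SW480 (right), filled where the edgeR adjusted p was under 0.05. The filled points are CYP20A1 at -0.95 in RKO, and in SW480 8 genes between 0.44 and 2.36 and CYP4V2 at -1.001.

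Among the enzymes for foreign compounds, CYP3A5 moved furthest. This main extrahepatic CYP3A enzyme had 31.0 and 33.6 CPM in SW480-shCYP1B1, against 5.28 and 7.33 CPM in SW480-shNT. Every knockdown library lay far over both control libraries. The log2 fold change was 2.36 ± 0.20, or 5.12-fold (edgeR adjusted p = 5.60e-06). The related CYP3A7, a mainly fetal enzyme, had 1.13 and 0.150 CPM in SW480-shCYP1B1 and 0.663 and 0.551 CPM in SW480-shNT, with the control values inside the range of the knockdown (0.07 ± 0.88, adjusted p = 0.954). How reads of these similar genes were assigned is not given in the sources used here, and CYP3A7 shares 1507 exon bases with CYP3A7-CYP3A51P.

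CYP2S1 had 126 and 130 CPM in SW480-shCYP1B1, against 60.7 and 63.4 CPM in SW480-shNT. Its groups were far apart and its replicates close. It rose by a log2 fold change of 1.04 ± 0.09, or 2.06-fold (edgeR adjusted p = 3.68e-06). In RKO it had 8 and 4 counts in RKO-CYP1B1 and 2 and 3 in RKO-Control.

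CYP2E1 rests on few reads. It had 1.68 and 1.11 CPM in SW480-shCYP1B1 against 0.548 and 0.0290 CPM in SW480-shNT, where the last value is 1 read. The groups did not overlap, and the log2 fold change was 2.26 ± 0.80 (edgeR adjusted p = 0.0343). The call was lost without SW480-shNT 2 (1.35, adjusted p = 0.150), SW480-shCYP1B1 1 (1.94, adjusted p = 0.161) or SW480-shCYP1B1 2 (2.53, adjusted p = 0.0648). It was also lost without RKO-Control 1 or RKO-Control 2. Leaving out a library changed both the shared model and the set of genes that passed the filter, and the cause was not tested. The gene shares 2064 exon bases with SYCE1 on the opposite strand, and whether counting used strand is not given in the sources used here. CYP2D6 had 4 and 1 counts in SW480-shCYP1B1 and 11 and 10 in SW480-shNT (adjusted p = 0.152).

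Vitamin D enzymes were grouped here without CYP27A1, which is with the sterol enzymes and did not pass in SW480. All 3 of the group, CYP24A1, CYP27B1 and CYP2R1, rose in SW480, where 25.3% of all tested genes were called higher. The count was 2, with CYP2R1 not called, under library totals and without RKO-Control 1, RKO-Control 2, SW480-shNT 2, SW480-shCYP1B1 1 or SW480-shCYP1B1 2. CYP24A1 had 20.01 and 20.3 CPM in SW480-shCYP1B1, against 10.1 and 6.67 CPM in SW480-shNT. CYP27B1 had 17.3 and 14.1 CPM in SW480-shCYP1B1, against 6.23 and 7.33 CPM in SW480-shNT. For both genes the knockdown libraries lay wholly over the control libraries, by log2 fold changes of 1.27 ± 0.25 and 1.21 ± 0.26 (edgeR adjusted p = 0.00162 and 0.00215). The enzyme that makes the active hormone and the enzyme that inactivates it moved in the same direction.

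CYP2R1 rose less and less firmly, with 17.7 and 18.0 CPM in SW480-shCYP1B1 against 14.9 and 11.4 CPM in SW480-shNT (0.44 ± 0.17, edgeR adjusted p = 0.0466). Its call was lost with library totals in place of TMM factors (adjusted p = 0.0704), without RKO-Control 1 (0.0702) or RKO-Control 2 (0.0712), and without SW480-shNT 2 (0.27, adjusted p = 0.296). It was also lost without SW480-shCYP1B1 1 (adjusted p = 0.116) or SW480-shCYP1B1 2 (adjusted p = 0.138). VDR, the vitamin D receptor whose activity induces CYP24A1, fell: it had 119 and 118 CPM in SW480-shCYP1B1, against 247 and 256 CPM in SW480-shNT (-1.08 ± 0.09, adjusted p = 2.51e-06). CYP27B1 shares 107 exon bases with METTL1 on the same strand; METTL1 moved the other way in SW480, by -1.005 ± 0.16 (adjusted p = 0.000402).

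Of the tested retinoid enzymes, only CYP26B1 passed in SW480. CYP26B1 had 4.09 and 3.52 CPM in SW480-shCYP1B1, against 2.80 and 2.29 CPM in SW480-shNT, with no overlap (0.58 ± 0.19, edgeR adjusted p = 0.0269). This call was lost without SW480-shNT 2 (0.45, adjusted p = 0.157), without SW480-shCYP1B1 1 (0.48, adjusted p = 0.138) and in a fit of the 4 SW480 libraries alone (adjusted p = 0.0812). CYP26A1 had 1.19 and 1.20 CPM in SW480-shCYP1B1 against 1.53 and 1.39 CPM in SW480-shNT (-0.29 ± 0.64, adjusted p = 0.734). CYP27C1, a retinoid desaturase, had 0.764 and 0.722 CPM in SW480-shCYP1B1 against 1.82 and 1.07 CPM in SW480-shNT (-0.96 ± 0.61, adjusted p = 0.216).

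Of the sterol enzymes none passed in SW480. CYP27A1, high in this line, had 26.2 and 28.5 CPM in SW480-shCYP1B1 against 27.6 and 28.1 CPM in SW480-shNT. The groups overlapped and the log2 fold change was -0.03 ± 0.14 (edgeR adjusted p = 0.886). CYP39A1 had 3.48 and 3.04 CPM in SW480-shCYP1B1 against 1.79 and 2.12 CPM in SW480-shNT, apart but short of the threshold (0.74 ± 0.34, adjusted p = 0.0882). CYP19A1, the aromatase that makes oestrogens, had 24 and 23 counts in SW480-shCYP1B1 against 11 and 17 in SW480-shNT (adjusted p = 0.356).

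The enzymes of fatty acids and eicosanoids went both ways. CYP4V2 had 10.4 and 9.83 CPM in SW480-shCYP1B1, against 19.9 and 20.6 CPM in SW480-shNT. Its replicates were close and its groups far apart, and it fell by a log2 fold change of -1.001 ± 0.25 (edgeR adjusted p = 0.00610). It shares 201 exon bases with KLKB1 on the same strand, which had at most 17 counts in any library. CYP2J2 had 15.3 and 15.6 CPM in SW480-shCYP1B1, against 10.6 and 10.1 CPM in SW480-shNT, also apart (0.58 ± 0.22, adjusted p = 0.0419).

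The CYP2J2 call was lost without SW480-shNT 1 (adjusted p = 0.139) or SW480-shNT 2 (0.178), without SW480-shCYP1B1 1 (0.150) or SW480-shCYP1B1 2 (0.174), and with library totals (0.0588). CYP2U1 had 13.8 and 13.05 CPM in SW480-shCYP1B1 against 15.2 and 13.9 CPM in SW480-shNT (-0.11 ± 0.17, edgeR adjusted p = 0.615). CYP4F12, CYP4F22 and CYP4X1 had between 8 and 36 counts in each SW480 library, and none passed. CYP20A1, the gene called in RKO, had 3.24 and 5.14 CPM in SW480-shCYP1B1 against 4.79 and 6.98 CPM in SW480-shNT, ranges that overlap (-0.49 ± 0.26, adjusted p = 0.144).

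**Figure D4:**
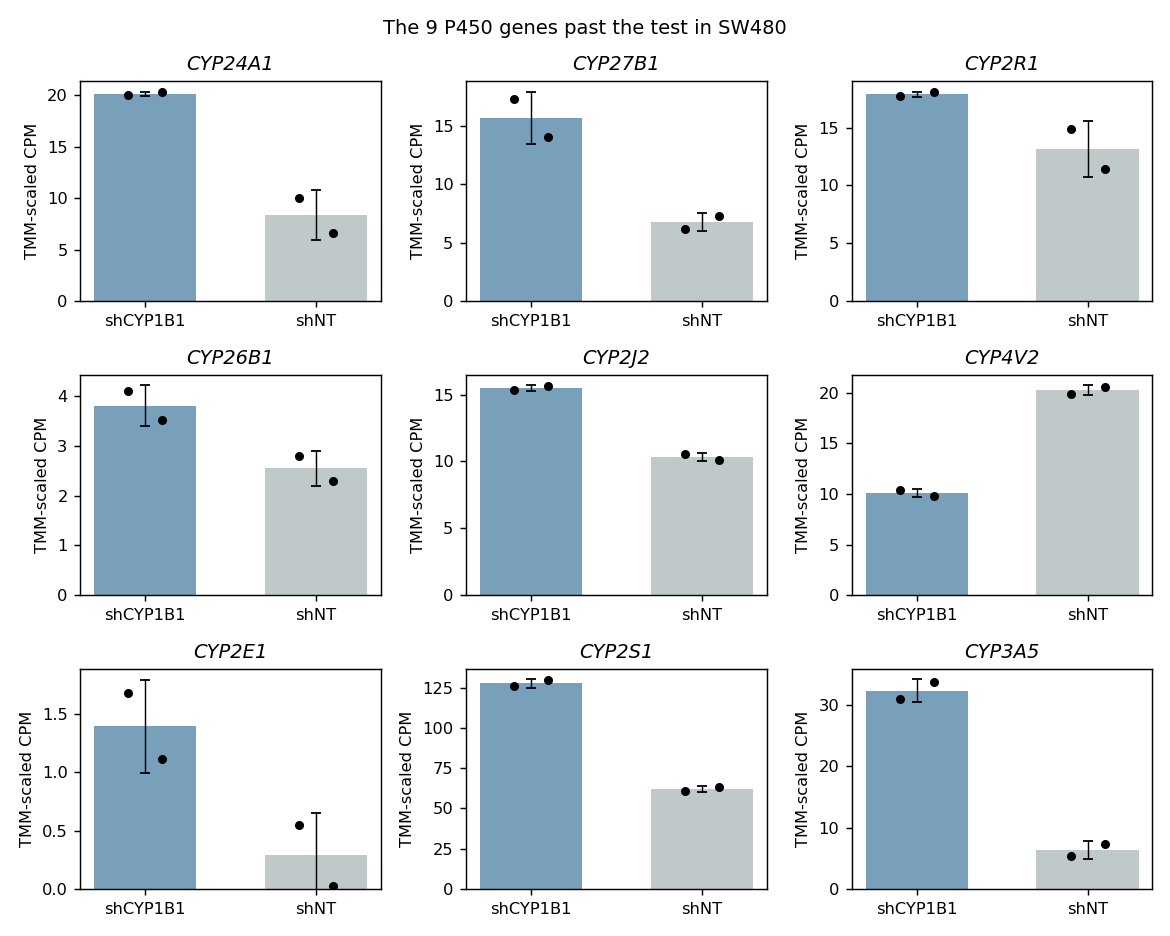
Bars are mean TMM-scaled CPM with SD (n = 2) and dots are single libraries, SW480-shCYP1B1 on the left and SW480-shNT on the right, for the 9 P450 genes past the test in SW480. Dots of both groups are apart in every panel; the second SW480-shNT dot of CYP2E1 is 1 read.

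The effect of more CYP1B1 was then compared between the lines, as RKO-CYP1B1 minus RKO-Control set against SW480-shNT minus SW480-shCYP1B1. By the interaction term of the edgeR model 7 of the 21 tested P450 genes differed, 5 higher and 2 lower in RKO, beside 42.6% of all tested genes (21.0% higher, 21.6% lower). Of the 21 genes 5 had 0 counts in all 4 RKO libraries and could not be called. Of the genes higher in RKO, CYP2S1 and CYP3A5 had at most 8 counts in an RKO library and passed the filter only through SW480. The number is therefore not a fair match to that share. The number of genes that differed was 5 with library totals and 5 with the replicate block. It also fell without SW480-shNT 2 or either SW480-shCYP1B1 library, and without RKO-CYP1B1 1 or either RKO-Control library. For CYP27B1 the difference was 2.14 ± 0.41 (adjusted p = 0.00162) and held in all 14 alternatives run. Its log2 fold changes were 0.93 with overexpression in RKO, short of the threshold, and 1.21 with knockdown in SW480. CYP20A1 showed the opposite pattern, -1.44 ± 0.36 (adjusted p = 0.00790), and lost the call without SW480-shNT 2 (-1.13, adjusted p = 0.0561). CYP4V2 differed by -1.29 ± 0.37 (adjusted p = 0.0145). It lost the call without RKO-Control 2 (-1.09, adjusted p = 0.0788), SW480-shNT 2 (-1.26, adjusted p = 0.0541) or SW480-shCYP1B1 2 (-1.24, adjusted p = 0.0537).

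Of 10 redox partners, the proteins that feed electrons to P450 enzymes, 5 rose and 0 fell in RKO, and 2 rose and 2 fell in SW480. Over all tested genes 13.8% were called each way in RKO and 25.3% each way in SW480. The median log2 fold change of the 10 was 0.28 in RKO and -0.04 in SW480, beside 0.00 over all tested genes in either line. In RKO FDXR, the mitochondrial ferredoxin reductase, averaged 57.2 ± 6.0 CPM in RKO-CYP1B1 and 35.2 ± 1.1 CPM in RKO-Control (SD, n = 2 each; log2 fold change 0.70, edgeR adjusted p = 0.000617). PGRMC1, a haem-binding partner, rose by 0.40 and CYB5R3, a cytochrome b5 reductase, by 0.33 on the log2 scale (adjusted p = 0.00142 and 0.00474). The CYB5R3 call was lost without RKO-Control 2 (adjusted p = 0.0623). The number of redox genes that rose in RKO was 3 without RKO-Control 1 and 2 without RKO-Control 2. In SW480 it was 1 without RKO-Control 1, RKO-Control 2, SW480-shNT 2, SW480-shCYP1B1 1 or SW480-shCYP1B1 2. The number that fell in SW480 was 1 without SW480-shNT 1 or SW480-shCYP1B1 1.

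POR, the reductase that serves the microsomal P450 enzymes, had 75.6 and 85.8 CPM in RKO-CYP1B1 against 68.5 and 67.5 CPM in RKO-Control. The groups were apart and the log2 fold change was 0.25 ± 0.08 (edgeR adjusted p = 0.0368). The call was lost without RKO-Control 1 (adjusted p = 0.133), RKO-Control 2 (0.177) or RKO-CYP1B1 2 (0.15, adjusted p = 0.0812). It was also lost without SW480-shNT 1 (0.0767), SW480-shNT 2 (0.0766), SW480-shCYP1B1 1 (0.0683) or SW480-shCYP1B1 2 (0.0676). In SW480 POR had 181 and 194 CPM in SW480-shCYP1B1 against 188 and 192 CPM in SW480-shNT, with overlapping ranges (adjusted p = 0.833). There FDXR rose by 0.46 and CYB5B, a mitochondrial cytochrome b5, fell by 0.41 (adjusted p = 0.00358 and 0.000473).

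Of 12 tested genes of haem synthesis and breakdown, 4 rose and 0 fell in RKO: BLVRA, CPOX, UROD and HMOX1, by log2 fold changes of 0.38 to 0.55, beside 13.8% of all tested genes in each direction. The HMOX1 call was lost without RKO-Control 2 (edgeR adjusted p = 0.0720). Without RKO-CYP1B1 1 the RKO counts were 4 and 2. In SW480 5 rose and 4 fell, beside 25.3% of all tested genes in each direction. The median over the 12 was 0.11 in RKO and 0.03 in SW480. ALAS1, the rate-limiting first enzyme of haem synthesis, averaged 207 ± 15 CPM in SW480-shCYP1B1 and 117 ± 3.4 CPM in SW480-shNT (SD, n = 2 each; log2 fold change 0.82, adjusted p = 1.02e-05). FECH, the last enzyme, which inserts the iron, averaged 7.86 ± 0.62 CPM in SW480-shCYP1B1 and 20.3 ± 2.3 CPM in SW480-shNT (-1.37, adjusted p = 6.77e-06). BLVRB and BLVRA, the biliverdin reductases of haem breakdown, rose by 1.12 and 0.83.

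Of 19 tested nuclear and xenobiotic receptors and their partners, 2 rose and 2 fell in RKO, with a median log2 fold change of 0.03, beside 13.8% called each way over all tested genes. RXRA and RARG, receptors for retinoids, rose by 0.61 and 0.51, and AHR and TIPARP fell by 0.55 and 0.41 (edgeR adjusted p = 0.00102, 0.00195, 0.00701 and 0.00221). Without RKO-CYP1B1 1 the counts were 5 and 3. In SW480 8 rose and 6 fell, with a median of 0.19, beside 25.3% called each way. The counts were 4 and 4 without SW480-shNT 2 and 5 and 4 without SW480-shCYP1B1 2. With VDR they include ARNT2 (-1.78, adjusted p = 1.84e-06), RARA (0.97, adjusted p = 5.37e-06) and PPARD (0.88, adjusted p = 4.02e-06). AHR, the receptor for dioxin-like compounds, had 37.4 and 40.1 CPM in SW480-shCYP1B1 against 47.2 and 49.0 CPM in SW480-shNT (-0.31, adjusted p = 0.0343). That call was lost without any 1 of the 4 SW480 libraries: SW480-shNT 1 (adjusted p = 0.104), SW480-shNT 2 (0.159), SW480-shCYP1B1 1 (0.190) or SW480-shCYP1B1 2 (0.0814).

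Of 15 tested genes that handle retinoids, vitamin D precursors and bile acids, 3 rose and 1 fell in RKO, and 5 rose and 1 fell in SW480, with medians of 0.01 and 0.08. Over all tested genes 13.8% were called each way in RKO and 25.3% each way in SW480. In RKO the counts were 1 and 0 without RKO-Control 1 and 1 and 2 without RKO-Control 2. Without RKO-CYP1B1 1 they were 3 and 2. In SW480 they were 1 and 0 without SW480-shNT 2, 2 and 0 without SW480-shCYP1B1 1, and 3 and 0 without SW480-shNT 1 or SW480-shCYP1B1 2. In RKO DHCR7, which consumes the vitamin D precursor 7-dehydrocholesterol, rose by 0.66 on the log2 scale (edgeR adjusted p = 0.000245). RDH11, a retinal reductase, fell by 0.39 in RKO (adjusted p = 0.00626), a call lost without RKO-Control 1 (adjusted p = 0.0557), and rose by 0.40 in SW480 (adjusted p = 0.00249). CRABP2, which carries retinoic acid to its receptors, rose by 0.40 in SW480 (adjusted p = 0.00720), a call lost without SW480-shNT 2 (adjusted p = 0.0621). Over all 56 partner genes tested, 14 rose and 3 fell in RKO, and 20 rose and 13 fell in SW480. These counts stand beside backgrounds of 13.8% in each direction in RKO and 25.3% in each direction in SW480. In RKO the balance was less one-sided without RKO-Control 2 or without RKO-CYP1B1 1. Without SW480-shNT 2 the SW480 counts were 10 and 9.

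Cell type markers also moved with the knockdown in SW480. EPCAM averaged 22.9 CPM in SW480-shCYP1B1 and 131 CPM in SW480-shNT, and VIL1, a brush border protein, averaged 1.26 CPM in SW480-shCYP1B1 and 11.5 CPM in SW480-shNT. The 9 epithelial markers summed to 5691 to 5736 CPM in SW480-shCYP1B1 and 5075 to 5288 CPM in SW480-shNT, most of it KRT8 and KRT18. The fibroblast list summed to 26.4 to 29.4 CPM in SW480-shCYP1B1 and 14.4 to 18.9 CPM in SW480-shNT, with LUM at no more than 4 counts. The hepatocyte list summed to 322 to 327 CPM in SW480-shCYP1B1 and 366 to 377 CPM in SW480-shNT, nearly all of it SERPINA1, with APOA2 at 0. The immune list summed to 28.0 to 28.3 CPM in SW480-shCYP1B1 and 10.4 to 11.8 CPM in SW480-shNT, led by CD68, with PTPRC at no more than 2 counts. The part of these shifts in the P450 results was not tested.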

How the data were processed

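RNA from 8 libraries was sequenced after a stranded mRNA preparation, per the labels' protocols. The authors deposited raw read counts per gene and FPKM for the same genes. Per the submitters' processing notes the genome build was GRCh38.p13. For aligner, counter, annotation and strand the entry is not given in the sources used here.

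Groups and replicate numbers came from the sample titles. Genes were filtered with filterByExpr by group (minimum count 10, minimum total 15), leaving 14157 of 16829, and scaled with TMM. All 8 libraries entered 1 quasi-likelihood fit in edgeR 4.0.16 (R 4.3.3) with a term for each group, with Benjamini-Hochberg adjustment over all genes tested and a threshold of 0.05. DESeq2 1.42.0 was an alternative. The code was tested on simulated data. Gene overlaps came from GENCODE 29. Total counts per library set the precision; intervals cover counting error only.

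Every tested P450 gene was given fold changes where its counts allowed; those called in either line and the 6 with the highest mean FPKM were described per library, and up to 4 called partner genes per list. The members and lists were chosen with earlier results of these data known. Other settings tried were RLE size factors, library totals, other filters, DESeq2, a replicate block, separate fits per line and leaving out each library. A single member that counts of genes include is not reported here by name.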

Additional observations from a re-analysis of the deposited data

Results flagged for a closer look

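For 7 P450 genes the effect of more CYP1B1 differed between the lines by the interaction term of the edgeR model (RKO-CYP1B1 minus RKO-Control, less SW480-shNT minus SW480-shCYP1B1). On the log2 scale the difference was 2.14 for CYP27B1 (adjusted p = 0.00162), -1.44 for CYP20A1 (adjusted p = 0.00790) and -1.29 for CYP4V2 (adjusted p = 0.0145). It was 0.72 for CYP26B1 (adjusted p = 0.0386), with 16.4 to 19.6 CPM in RKO and 2.29 to 4.09 CPM in SW480, and 1.30 for CYP39A1 (adjusted p = 0.0455). The CYP26B1 call was lost in 7 of 14 alternatives and that of CYP39A1 in 9 of 14.

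For CYP2S1 and CYP3A5 the difference was 2.22 (adjusted p = 0.00752) and 5.51 (adjusted p = 0.0445), but in RKO these genes had 2 to 8 and 0 to 1 counts per library, so their fitted RKO change has no reliable size. The CYP2S1 call was lost without RKO-CYP1B1 1 (1.68, adjusted p = 0.157). The CYP3A5 call was lost without any 1 of the 4 RKO libraries (adjusted p from 0.0757 to 0.0971), without SW480-shCYP1B1 1 (0.0623) or without SW480-shCYP1B1 2 (0.0662).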

How the results depend on the processing

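In RKO the number of P450 genes called, 1 in the fit reported, was 2 with RLE size factors, 2 with library totals, 3 with DESeq2 (1 higher, 2 lower) and 2 with the replicate block (1 higher, 1 lower); it was 0 to 4 when each library was left out in turn. In SW480 the 9 calls became 5 to 9, the 7 calls between lines 3 to 7, the 17 calls between control groups 17 to 20, and the 17 genes at 1 CPM 16 to 17, on leaving out a library. Partner genes called were 12 to 24 in RKO and 19 to 36 in SW480. No pairing by replicate number was seen (correlation of same-numbered deviations -0.05 in RKO and -0.01 in SW480). These values cannot tell whether same-numbered libraries were prepared together. The replicate block gave 8 calls in SW480 and 5 between lines. It ended the calls of CYP2J2 in SW480 (edgeR adjusted p = 0.0739) and of CYP26B1 (0.0534) and CYP39A1 (0.0772) between lines. Also ended were the calls of CYP4X1 (0.0652) and CYP4F12 (0.0508) between control groups, and of POR in RKO (0.0553). CYP27B1 in RKO (0.0348) and CYP2E1 between control groups (0.0134) passed with the block.

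Signs of small, uncalled changes turned. CYP3A7 in SW480 was -0.31 with the replicate block, CYP4X1 was -0.019 with library totals, POR was 0.0034 with RLE factors or DESeq2, and CYP39A1 between control groups was 0.036 with library totals and 0.0048 without a filter. On leaving out a library the RKO values spanned -0.26 to 2.38 for CYP2D6, -0.30 to 0.34 for CYP2E1 and -0.88 to 0.12 for CYP4V2. The SW480 values spanned -0.081 to 0.042 for CYP27A1, -1.98 to 0.90 for CYP3A7, -0.55 to 0.53 for CYP4F12, -0.44 to 0.13 for CYP4F22, -0.23 to 0.26 for CYP4X1 and -0.064 to 0.036 for POR. Between control groups CYP2D6 spanned -1.03 to 1.61 and CYP39A1 -0.16 to 0.13. The cause was not tested. Where a library is left out, its group keeps 1 library, whose spread is taken to equal that of the other groups. The filter on low counts was then applied anew, so the set of genes tested also changed. Few reads stand behind CYP19A1, CYP2D6, CYP3A7, CYP4F12, CYP4F22 and CYP4X1, with at most 37 counts in any library.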
